A study of Mus musculus with 9 samples.

Results

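The potassium channel genes described here are the genes of a whole-heart array table whose platform symbol begins with Kcn. They number 91 of the 20239 genes with 1 symbol in the table. Sorted by family, 26 encode voltage-gated pore subunits, 10 encode silent voltage-gated subunits that need a partner to form a channel, 15 encode inward rectifiers, 14 encode two-pore channels, 8 encode members of the families of calcium- or sodium-gated channels, 17 encode auxiliary subunits, and 1, Kcnmb4os1, is a noncoding RNA gene. The hearts came from male C57BL/6 mice, 3 mice in each of 3 groups. At 8 weeks of age every mouse, controls included, received an adeno-associated virus (AAV), and 4 weeks later it underwent either sham surgery or transverse aortic constriction (TAC), which narrows the aorta and loads the left ventricle with pressure. Hearts were frozen 4 weeks after surgery. The groups were sham with AAV-luciferase, TAC with AAV-luciferase, and TAC with AAV carrying amino acids 1 to 201 of the histone deacetylase HDAC4, called HDAC4-NT here. The MLC promoter, from a myosin light chain gene, drove the transgene, and HDAC4-NT was not given to a sham group, so its values without TAC were not measured.

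Potassium channels let potassium leave the cell and so end the cardiac action potential and hold the resting potential. In mouse ventricle a fast transient outward current, carried by Kcnd2 and Kcnd3 pores with the calcium-binding subunit Kcnip2, does much of the repolarising, while Kcnj2 and Kcnj12 carry the inward rectifier current that sets the resting potential. Kcnj3 and Kcnj5 form the acetylcholine-activated channel of atrium and sinus node, and Kcnj11 or Kcnj8 joins a sulfonylurea receptor to form the channel that opens when cellular ATP falls.

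All values are log2 expression levels as deposited, and a difference is a difference of group means on that scale. Changes of weakly expressed genes may be understated, because levels near the bottom of the scale are compressed. Of the 91 genes, 45 lay above log2 5.659 on at least 3 of the 9 arrays and were tested, and 46 did not. The tests compared all 12597 genes that passed this filter in a limma model over the 9 arrays, and genes with a Benjamini-Hochberg adjusted p under 0.05 passed the test. The median standard error of a difference was 0.07.

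An array of the TAC-luciferase group stood apart. TAC-luciferase heart 1 correlated with the TAC-HDAC4-NT hearts at 0.9914 to 0.9918 and with its 2 group mates at 0.9857 to 0.9867, so counts are also given without it and without those mates. The sample codes start with 8 for this heart and 9 for its mates, with 3 for TAC-HDAC4-NT heart 1 and 4 for its mates, and with 12 for every sham heart. The labels do not say what the number means, and since no number spans groups, it and the group cannot be told apart. Myh7 and Nppa, genes of the load response, were higher in every TAC heart than in any sham heart, by 2.42 and 2.04 in the TAC-luciferase group. Endogenous Hdac4 lay between 6.88 and 7.19 on all 9 arrays. Where its probes lie within the gene is not known here, so this value does not check the transgene. The mean of 7 cardiomyocyte markers was 13.18 to 13.30 in sham, 13.13 to 13.19 in TAC-luciferase and 13.16 to 13.17 in TAC-HDAC4-NT hearts. The mean of 6 fibroblast markers was 8.03 to 8.12, 9.17 to 9.27 and 9.38 to 9.41 in the same order, and that of 7 macrophage markers 7.30 to 7.44, 7.80 to 8.01 and 7.75 to 7.86.

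In TAC-luciferase hearts, 15 of the 45 tested potassium channel genes were lower than in sham hearts and 2 were higher, Kcnh1 and Kcnn3. The lower genes included 5 of 7 tested inward rectifiers (Kcnj3, Kcnj2, Kcnj5, Kcnj11 and Kcnj12) and 5 of 14 voltage-gated pores (Kcnd2, Kcnh2, Kcnd3, Kcna2 and Kcna1). They also included 1 of 6 auxiliary subunits (Kcnip2), 1 of 6 silent subunits (Kcnv2), 2 of 4 calcium- or sodium-gated channels (Kcnn2 and Kcnn1) and 1 of 7 two-pore channels (Kcnk3). The falls ran from 1.14-fold to 2.74-fold, and 3 of them, in Kcnj3, Kcnj2 and Kcnd2, reached 2-fold. The 15 lower genes are 33.3% of the tested members, where 14.9% of all tested genes were lower, and the 2 higher genes are 4.44%, where 11.2% of all tested genes were higher. Kcnv2 and Kcnh3 passed the filter only through their sham hearts, and without them 14 of 43 (32.6%) were lower in this comparison. The median difference was -0.03 over the 45 genes and -0.01 over all tested genes, so the bulk of the family lay near 0 and the falls were in a minority of it. Non-overlapping groups were seen for 19 of the 45 genes (42.2%), 16 of them lower, against 37.4% of all tested genes. The 16 include Kcnv2 and Kcnh3, whose groups could not overlap because only their sham hearts lay above the filter. Without TAC-luciferase heart 1, 14 genes were lower and 5 were higher (Kcnn3, Kcna5, Kcnh1, Kcnmb1 and Kcnk6), where 13.6% and 12.1% of all tested genes were; without TAC-luciferase hearts 2 and 3, 9 were lower (Kcnd2, Kcnd3, Kcnip2, Kcnj2, Kcnj3, Kcnj5, Kcnj11, Kcnn2 and Kcnv2) and 1 was higher (Kcne1), where 7.87% and 7.41% of all tested genes were. The count of higher genes was 0 without TAC-luciferase heart 2 and 1 without any single sham or TAC-HDAC4-NT heart. A clock gene index, activator minus output genes, was -0.81 to -0.12 in sham, -0.74 to 0.98 in TAC-luciferase and -1.70 to -1.05 in TAC-HDAC4-NT hearts. With it as a covariate 12 of the 45 members were lower and 2 higher, against 12.1% and 9.71% of all tested genes. The calls of Kcnj12, Kcnk3, Kcnn1, Kcnn3 and Kcnh1 were lost (adjusted p = 0.0613, 0.0795, 0.0543, 0.0597 and 0.128), so the 2 higher there were members other than Kcnn3 and Kcnh1.

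**Figure D1:**
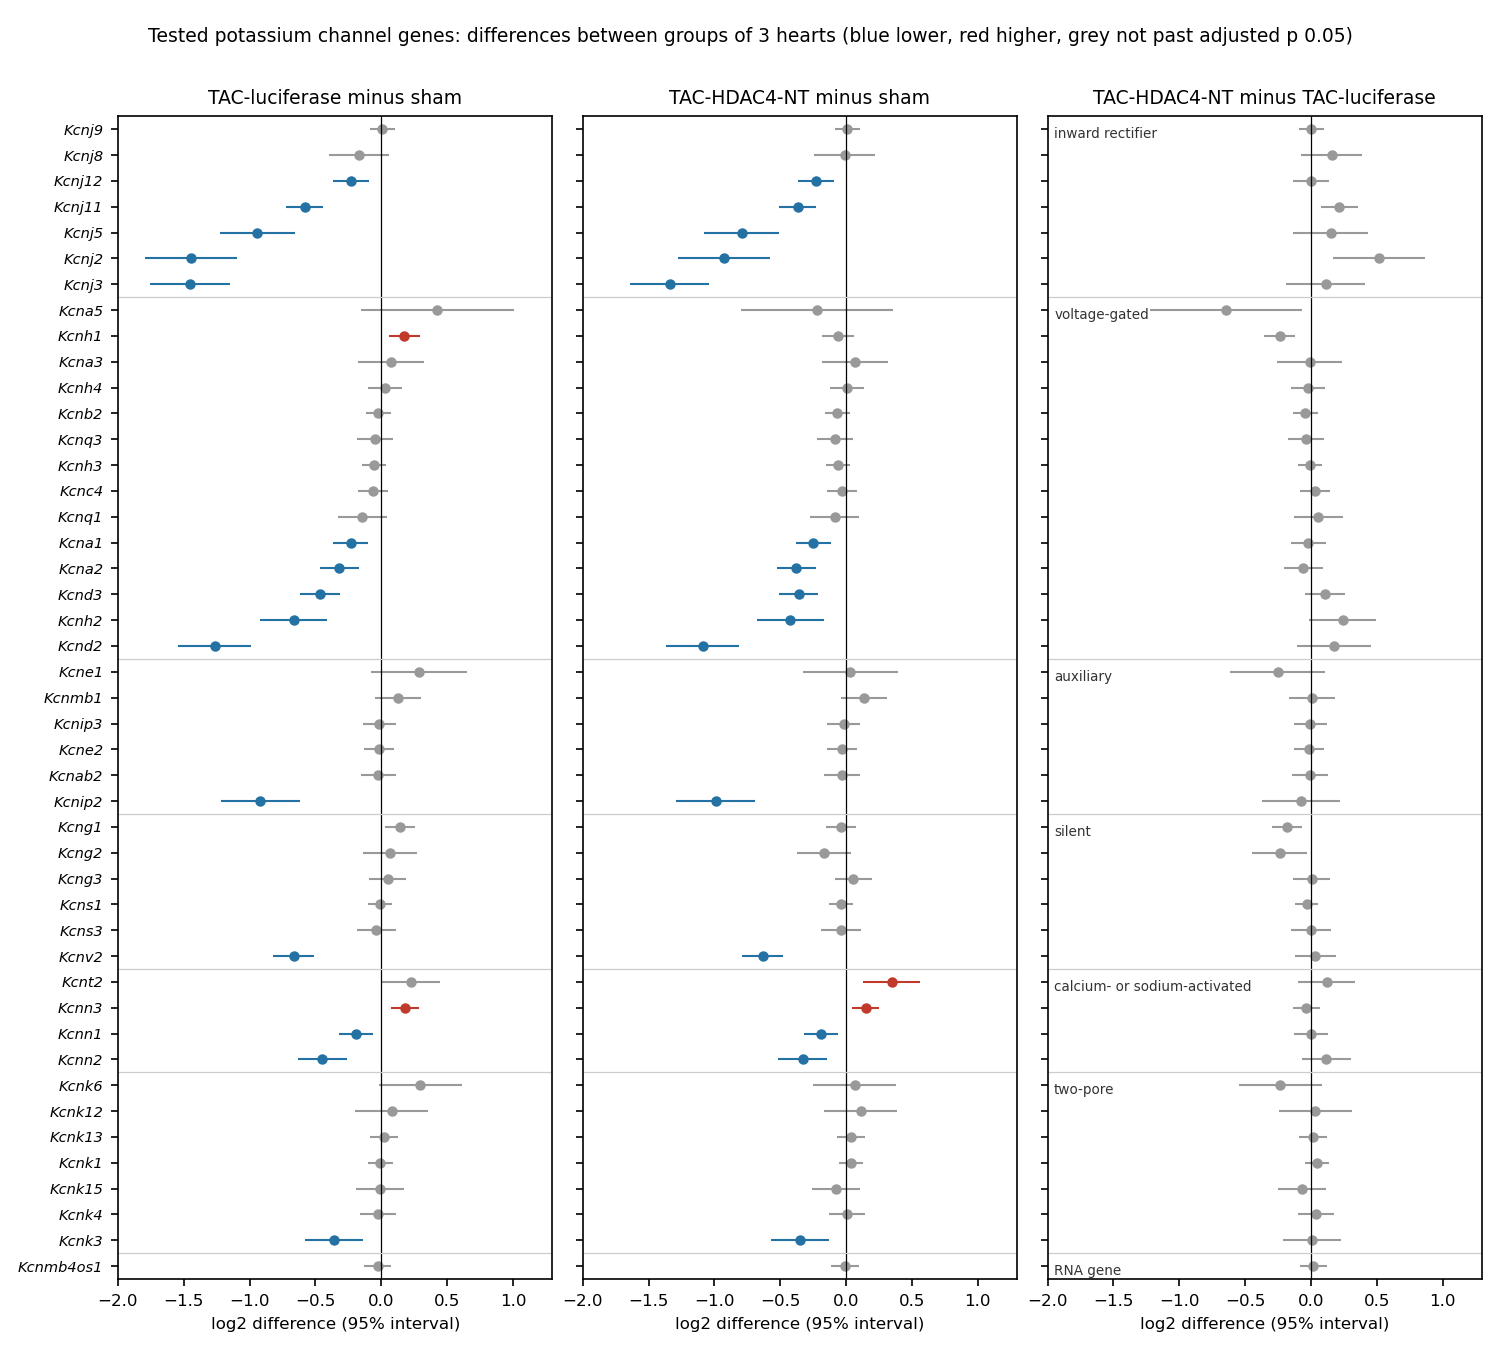
Differences between group means in log2 units (x axis) for the 45 tested potassium channel genes (y axis, grouped by family), with 95% intervals from the limma model over 9 hearts; each panel is a comparison of 3 hearts with 3 hearts, and blue and red mark genes lower or higher at adjusted p under 0.05. In both comparisons with sham 15 genes are lower and 2 higher, most points lie near 0, and no gene is coloured in the comparison of the TAC groups.

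In TAC-HDAC4-NT hearts, also compared with the same 3 sham hearts, 15 of the 45 genes were lower and 2 were higher, Kcnn3 and Kcnt2. By family the lower genes were again 5 of 7 inward rectifiers, 5 of 14 voltage-gated pores, 1 of 6 auxiliary subunits, 1 of 6 silent subunits, 2 of 4 calcium- or sodium-gated channels and 1 of 7 two-pore channels. The falls ran from 1.14-fold to 2.53-fold, and those of Kcnj3 and Kcnd2 exceeded 2-fold. The share lower was 33.3%, where 12.3% of all tested genes were lower, and the share higher was 4.44%, where 10.5% of all tested genes were higher. Without Kcnv2 and Kcnh3 it was again 14 of 43 (32.6%). The median difference was -0.06 over the 45 genes and -0.01 over all tested genes. Sham and TAC-HDAC4-NT values were fully apart for 23 genes (51.1%), 19 of them lower, against 39.7% of all tested genes. Kcnv2 and Kcnh3 are among the 19, and the filter left them no way to overlap. Because both comparisons use the same sham hearts, an agreement between them is not independent evidence. Without TAC-HDAC4-NT heart 1 or 3, or without sham heart 2 or 3, the count of higher genes was 0, and it was 1 without any other single heart. With the clock index as a covariate 11 of the 45 members were lower, against 7.78% of all tested genes, and 0 higher; the calls of Kcna1, Kcnj12, Kcnn1, Kcnn2, Kcnn3 and Kcnt2 were lost (adjusted p = 0.0833, 0.0822, 0.181, 0.136, 0.12 and 0.17).

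Against TAC-luciferase hearts, 0 of the 45 genes passed the test in TAC-HDAC4-NT hearts by limma, and 6 had an unadjusted p under 0.05. Over all 12597 tested genes 1807 had an unadjusted p under 0.05, and 0.143% passed the test as higher and 0.111% as lower. Groups did not overlap for 8 members (17.8%), 4 higher and 4 lower, against 20.4% of all tested genes. The 4 higher were Kcnj2, Kcnj11, Kcnj8 and Kcnk1, and the 4 lower were Kcnh1, Kcnb2, Kcng1 and Kcns1. Without TAC-luciferase heart 1, Kcna5 and Kcnh1 were lower at adjusted p of 0.000866 and 0.0186, in a fit where 3.15% of all tested genes were lower and 2.38% higher.

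The promoter sequences of the 5 genes with the largest falls after TAC with luciferase are shown because these genes fell together. Each is the 250 bases before the start of transcription in RefSeq (GRCm38.p6), read 5′ to 3′ on the strand of the gene, with every GC box, GGGCGG on the printed strand, in capitals. Kcnj3 lies at chr2:55435720-55435969 (+), Kcnj2 at chr11:111065914-111066163 (+), Kcnd2 at chr6:21215096-21215345 (+), Kcnj5 at chr9:32344345-32344594 (-) and Kcnip2 at chr19:45816064-45816313 (-).
Kcnj3: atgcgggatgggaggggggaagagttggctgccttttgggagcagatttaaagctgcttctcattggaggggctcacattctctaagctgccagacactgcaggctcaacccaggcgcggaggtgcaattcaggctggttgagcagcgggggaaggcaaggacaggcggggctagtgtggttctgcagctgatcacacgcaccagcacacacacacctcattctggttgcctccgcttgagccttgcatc
Kcnj2: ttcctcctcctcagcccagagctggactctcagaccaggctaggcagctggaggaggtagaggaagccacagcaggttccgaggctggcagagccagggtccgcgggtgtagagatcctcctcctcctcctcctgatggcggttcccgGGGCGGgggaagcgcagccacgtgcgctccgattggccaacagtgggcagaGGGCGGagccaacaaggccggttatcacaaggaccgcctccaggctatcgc
Kcnd2: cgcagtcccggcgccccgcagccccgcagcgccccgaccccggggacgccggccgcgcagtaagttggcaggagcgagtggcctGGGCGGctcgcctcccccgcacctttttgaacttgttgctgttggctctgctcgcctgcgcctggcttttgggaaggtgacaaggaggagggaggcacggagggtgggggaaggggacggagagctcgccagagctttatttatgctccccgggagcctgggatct
Kcnj5: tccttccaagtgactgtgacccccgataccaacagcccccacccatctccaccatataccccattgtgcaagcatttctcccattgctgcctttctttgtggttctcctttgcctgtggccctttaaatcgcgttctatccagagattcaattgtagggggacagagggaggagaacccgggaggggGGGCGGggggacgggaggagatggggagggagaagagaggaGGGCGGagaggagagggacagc
Kcnip2: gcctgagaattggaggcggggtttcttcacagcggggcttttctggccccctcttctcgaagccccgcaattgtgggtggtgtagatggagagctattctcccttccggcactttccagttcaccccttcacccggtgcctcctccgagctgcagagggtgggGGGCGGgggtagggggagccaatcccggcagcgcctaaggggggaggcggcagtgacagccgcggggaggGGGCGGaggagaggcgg

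Kcnj3 held 0 of these boxes, Kcnd2 1, and Kcnj2, Kcnj5 and Kcnip2 2 each. RefSeq promoters were matched to 69 of the 91 genes, 94 promoters in all, and to 10 of the 15 genes lower in TAC-luciferase hearts, 11 promoters in all. Counting both strands, a GC box stood in 42 of the 94 promoters, in 6 of those 11, and in 32.7% of 32851 RefSeq promoters of this length. The MEF2 consensus, sought because HDAC4 binds MEF2 factors, stood in 2 of the 94, in 0 of the 11 and in 2.92% of all. The NBRE (AAAGGTCA, bound by NR4A receptors) stood in 1, 0 and 1.34%, the Iroquois site (ACANNTGT) in 3, 0 and 6.31%, and TATAAA in 3, 0 and 12.4%. The median GC content was 58.6% over the 94 promoters and 52.4% over all, and the Kcnj3, Kcnj2, Kcnd2, Kcnj5 and Kcnip2 promoters held 58.4%, 65.6%, 68.8%, 58.0% and 66.8%. A match gives letters in a window, not a bound site.

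The acetylcholine-activated pair fell in both TAC groups. Kcnj3 was at 9.53, 9.54 and 9.06 in sham hearts, at 7.83, 7.96 and 7.98 in TAC-luciferase hearts and at 7.85, 8.20 and 8.06 in TAC-HDAC4-NT hearts. Every sham heart lay above every TAC heart, and the TAC groups overlapped. It fell by 1.45 ± 0.13 (SE, n = 3 hearts a group; 2.74-fold; adjusted p = 0.00011) with luciferase and by 1.34 ± 0.13 (2.53-fold; adjusted p = 0.000179) with HDAC4-NT. Its partner Kcnj5 was at 8.37, 8.09 and 7.82 in sham, at 7.28, 6.99 and 7.17 in TAC-luciferase and at 7.26, 7.35 and 7.29 in TAC-HDAC4-NT hearts. Again no TAC heart reached the lowest sham heart, and the falls were 0.94 ± 0.13 (1.92-fold; adjusted p = 0.000739, a log2 difference of -0.94) and 0.79 ± 0.13 (1.73-fold; adjusted p = 0.00213, a log2 difference of -0.79). Whole hearts include the atria, where both genes are known to be strongest, and in such bulk tissue fewer cells of a type and less RNA per cell cannot be told apart. Averaged over Myl7, Myl4, Mybphl and Sln, atrial markers stood at 6.43 to 7.49 in sham, 5.98 to 8.07 in TAC-luciferase and 5.94 to 6.94 in TAC-HDAC4-NT hearts, so the groups overlapped. With that mean as a covariate Kcnj3 differed by -1.45 and -1.31, and Kcnj5 by -0.94 and -0.79.

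Of the pores for the resting inward rectifier current, Kcnj2 had the second-largest fall of the tested members in TAC-luciferase hearts and the fourth-largest in TAC-HDAC4-NT hearts. It was at 8.24, 7.89 and 7.70 in sham, at 6.51, 6.60 and 6.38 in TAC-luciferase and at 7.28, 6.76 and 7.01 in TAC-HDAC4-NT hearts. The 3 groups did not overlap, with the TAC-HDAC4-NT hearts between the other two groups. Kcnj2 fell by 1.44 ± 0.16 (2.72-fold; adjusted p = 0.000237) with luciferase and by 0.92 ± 0.16 (1.90-fold; adjusted p = 0.00272) with HDAC4-NT. The difference between the TAC groups was 0.52, with a 95% interval of 0.17 to 0.87 and an unadjusted p of 0.00824, and it did not pass the test over all genes (adjusted p = 0.171). With the clock index as a covariate that difference was 0.20 (adjusted p = 0.948). Kcnj12, the other pore of this current, was at 6.17, 6.09 and 6.25 in sham, 5.99, 5.94 and 5.90 in TAC-luciferase and 5.86, 5.94 and 6.02 in TAC-HDAC4-NT hearts. It was lower by a smaller step, with log2 differences of -0.23 ± 0.06 in both comparisons (adjusted p = 0.0222 and 0.0238). Those calls were lost without sham heart 1 or 3 in both comparisons, without TAC-luciferase heart 2 or 3 in the first (adjusted p up to 0.0719) and without TAC-HDAC4-NT heart 1 or 2 in the second (up to 0.0967).

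The pores of the ATP-sensitive channel differed from each other. Kcnj11, its pore in ventricular muscle, was at 7.97, 8.01 and 8.01 in sham, 7.51, 7.39 and 7.34 in TAC-luciferase and 7.68, 7.68 and 7.52 in TAC-HDAC4-NT hearts. The 3 groups were again apart in the same order as for Kcnj2. The differences from sham were -0.58 ± 0.06 (adjusted p = 0.000243) and -0.37 ± 0.06 (adjusted p = 0.00302), and that between the TAC groups was 0.21 (95% interval 0.07 to 0.36; unadjusted p = 0.00731; adjusted p = 0.164). The last was 0.097 with the clock index as a covariate and 0.12 without TAC-luciferase hearts 2 and 3. Kcnj8, the pore known from vascular smooth muscle and pericytes, was at 8.81, 8.70 and 8.39 in sham, 8.42, 8.49 and 8.48 in TAC-luciferase and 8.61, 8.52 and 8.74 in TAC-HDAC4-NT hearts. Its sham hearts overlapped with both TAC groups, and the differences of -0.17 and -0.01 did not pass (adjusted p = 0.274 and 0.958). The lowest TAC-HDAC4-NT heart lay above the highest TAC-luciferase heart, by a mean difference of 0.16 (adjusted p = 0.548). The mean of 8 smooth muscle and pericyte markers was 7.96 to 8.06 in TAC-luciferase and 8.13 to 8.19 in TAC-HDAC4-NT hearts, against 7.89 to 7.97 in sham hearts, and its part in the Kcnj8 values was not tested. Kcnj9 was the only other inward rectifier tested, and it lay between 5.75 and 5.81 on all 9 arrays. Over the 7 tested inward rectifiers the median difference was -0.58 with luciferase and -0.37 with HDAC4-NT against sham, and 0.15 between the TAC groups.

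**Figure D2:**
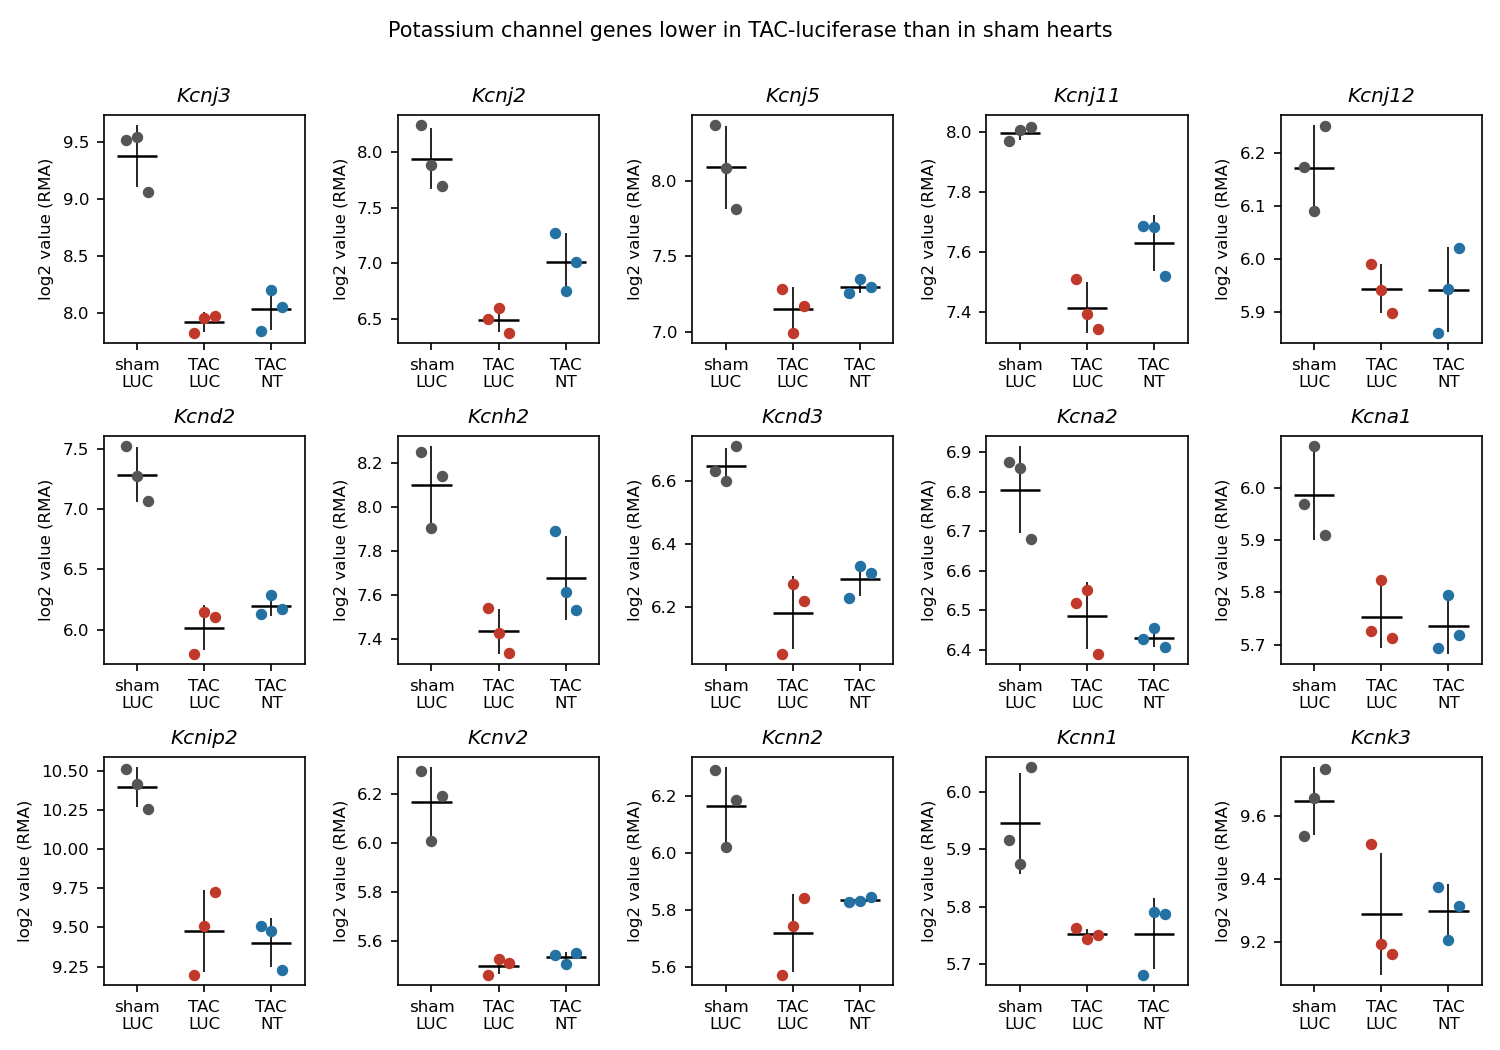
Log2 expression level (y axis) in each of the 9 hearts for the 15 potassium channel genes lower after TAC with luciferase, 1 panel a gene; points are single hearts, horizontal lines are group means, vertical lines are SD (n = 3), and the groups on the x axis are sham, TAC-luciferase and TAC-HDAC4-NT. In each panel the sham hearts lie above the TAC-luciferase hearts, with the widest steps in Kcnj3 (2.74-fold) and Kcnj2 (2.72-fold).

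The subunits of the fast transient outward current fell in both TAC groups. Kcnd2 was at 7.52, 7.27 and 7.07 in sham, 5.80, 6.15 and 6.11 in TAC-luciferase and 6.13, 6.29 and 6.17 in TAC-HDAC4-NT hearts. All TAC hearts lay below the lowest sham heart, and the TAC groups overlapped. It fell by 1.27 ± 0.12 (2.41-fold; adjusted p = 0.000145) and by 1.09 ± 0.12 (2.13-fold; adjusted p = 0.000336). Kcnd3, the sister pore, was at 6.63, 6.60 and 6.71 in sham, 6.05, 6.27 and 6.22 in TAC-luciferase and 6.23, 6.33 and 6.31 in TAC-HDAC4-NT hearts. The sham hearts again stood above all TAC hearts, at a smaller distance, with log2 differences of -0.47 ± 0.07 (adjusted p = 0.000996) and -0.36 ± 0.07 (adjusted p = 0.00436). The auxiliary subunit Kcnip2, which brings these pores to the membrane, was at 10.51, 10.41 and 10.26 in sham, 9.20, 9.51 and 9.72 in TAC-luciferase and 9.51, 9.47 and 9.23 in TAC-HDAC4-NT hearts. All 6 TAC hearts lay below the sham hearts and the TAC groups overlapped. Kcnip2 fell by 0.92 ± 0.13 (1.89-fold; adjusted p = 0.00108) and by 0.99 ± 0.13 (1.99-fold; adjusted p = 0.000794). Differences between the TAC groups were 0.18 for Kcnd2, 0.11 for Kcnd3 and -0.07 for Kcnip2 (adjusted p = 0.589, 0.519 and 0.878). Kcna4, the pore of the slower transient outward current, was not tested, at 5.40 to 5.59 on all arrays, and neither was the beta subunit Kcnab1, at 5.35 to 5.44.

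Among the delayed rectifier genes, Kcnh2, whose pore carries the rapid component, was at 8.25, 7.91 and 8.14 in sham, 7.54, 7.42 and 7.34 in TAC-luciferase and 7.89, 7.61 and 7.53 in TAC-HDAC4-NT hearts. Every TAC heart was below every sham heart, although TAC-HDAC4-NT heart 1 came close to sham heart 2. The log2 differences from sham were -0.67 ± 0.11 (1.59-fold; adjusted p = 0.00264) and -0.42 ± 0.11 (1.34-fold; adjusted p = 0.0246), and the difference between the TAC groups was 0.24 (adjusted p = 0.369), which turned to -0.04 with the clock index as a covariate (adjusted p = 0.983). The call against sham was lost in TAC-HDAC4-NT hearts without sham heart 1 or 3 or without TAC-HDAC4-NT heart 2 or 3 (adjusted p up to 0.0907), and in TAC-luciferase hearts without hearts 2 and 3 together (0.0586). Kcnq1, the pore of the slow component, was at 8.19, 7.98 and 7.95 in sham, 7.90, 7.96 and 7.82 in TAC-luciferase and 8.05, 7.82 and 8.00 in TAC-HDAC4-NT hearts, with groups that overlapped. Its differences of -0.14 and -0.09 did not pass (adjusted p = 0.239 and 0.523). Kcne1, the auxiliary subunit that joins Kcnq1, was at 6.03, 5.66 and 5.77 in sham, 6.48, 5.88 and 5.96 in TAC-luciferase and 5.96, 5.67 and 5.92 in TAC-HDAC4-NT hearts. Heart 1 of the TAC-luciferase group was the highest and the groups overlapped (difference 0.29; adjusted p = 0.237). With that heart alone for its group the difference was 0.66 (adjusted p = 0.0296), where the spread was taken from the other groups.

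In the Kcna group, Kcna2 was at 6.88, 6.86 and 6.68 in sham, 6.52, 6.55 and 6.39 in TAC-luciferase and 6.43, 6.45 and 6.41 in TAC-HDAC4-NT hearts, with all TAC hearts below all sham hearts. The differences were -0.32 (adjusted p = 0.00716; 0.0761 without TAC-luciferase hearts 2 and 3) and -0.38 (adjusted p = 0.00349). Kcna1 differed by -0.23 and -0.25 (adjusted p = 0.019 and 0.0149); its calls were lost without sham heart 2 or TAC-luciferase heart 3 (up to 0.0625) and without TAC-HDAC4-NT heart 1 or 3 (up to 0.0632). Kcna5, the pore of an ultra-rapid delayed rectifier current, was at 6.03, 6.03 and 6.19 in sham, 5.77, 6.95 and 6.81 in TAC-luciferase and 5.74, 6.03 and 5.82 in TAC-HDAC4-NT hearts. TAC-luciferase hearts 2 and 3 stood above all other hearts, and heart 1 of that group was below every sham heart. The difference from sham was 0.43 ± 0.26 (adjusted p = 0.271) and that of the TAC groups -0.65 (95% interval -1.23 to -0.07; adjusted p = 0.291). Without TAC-luciferase heart 1 these were 0.80 (adjusted p = 0.000558) and -1.02 (adjusted p = 0.000866). The clock gene index was -0.74, 0.47 and 0.98 in TAC-luciferase hearts 1 to 3, -0.81, -0.24 and -0.12 in sham hearts and -1.70, -1.05 and -1.10 in TAC-HDAC4-NT hearts. With the index as a covariate the Kcna5 difference between the TAC groups was 0.21 (adjusted p = 0.949).

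Kcnh1, an ether-a-go-go pore, was at 5.72, 5.71 and 5.77 in sham, 5.82, 5.99 and 5.92 in TAC-luciferase and 5.69, 5.64 and 5.68 in TAC-HDAC4-NT hearts. The TAC-luciferase hearts lay above both other groups, by 0.17 ± 0.05 over sham (adjusted p = 0.0383). The TAC-HDAC4-NT hearts were lower than the TAC-luciferase hearts by a log2 difference of -0.24, with the smallest unadjusted p among the members for these groups (0.00144; adjusted p = 0.086). With the clock index as a covariate this difference between the TAC groups was -0.16 (adjusted p = 0.835). It was -0.15 without TAC-luciferase hearts 2 and 3. The levels are close to the bottom of the scale, and the call against sham held only with all 9 hearts or without TAC-luciferase heart 1 when single hearts were left out (adjusted p up to 0.133). Without TAC-luciferase hearts 2 and 3 the difference from sham was 0.088 (adjusted p = 0.452). The 8 voltage-gated pores that passed no test against sham in TAC-luciferase hearts had differences from -0.14 (Kcnq1) to 0.43 (Kcna5).

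**Figure D3:**
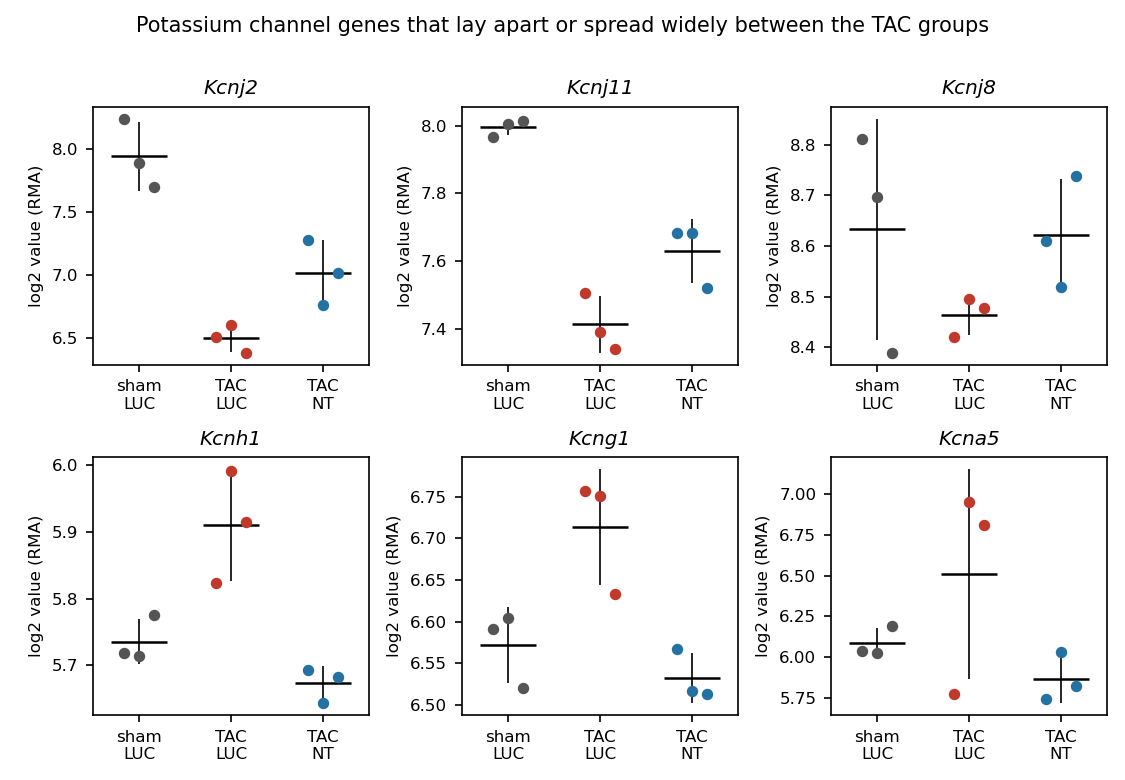
Log2 expression level (y axis) in each of the 9 hearts for Kcnj2, Kcnj11, Kcnj8, Kcnh1, Kcng1 and Kcna5, whose TAC groups lay apart or, for Kcna5, spread widely; points are single hearts, horizontal lines are group means, vertical lines are SD (n = 3), and the x axis gives sham, TAC-luciferase and TAC-HDAC4-NT. TAC-HDAC4-NT hearts lie above TAC-luciferase hearts for Kcnj2 (0.52) and Kcnj11 (0.21) and below for Kcnh1 (-0.24), and none of these differences passed at adjusted p under 0.05.

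Silent subunits do not open on their own but change the gating of other voltage-gated pores. Kcnv2 was at 6.29, 6.01 and 6.19 in sham, 5.46, 5.53 and 5.51 in TAC-luciferase and 5.54, 5.51 and 5.55 in TAC-HDAC4-NT hearts. The 6 TAC hearts sat in a narrow band below the filter and all sham hearts above it, so this gene was tested only through its sham hearts and had to differ. Its differences were -0.67 (1.59-fold) and -0.63 (1.55-fold). In the fit with no filter, where its entry did not depend on any group, the adjusted p values were 0.000648 and 0.000878. Kcnh3 likewise passed the filter only through its sham hearts, at 5.68 to 5.69, and its differences of -0.06 and -0.06 did not pass (adjusted p = 0.351 and 0.319). Kcng1 was at 6.59, 6.60 and 6.52 in sham, 6.76, 6.75 and 6.63 in TAC-luciferase and 6.57, 6.52 and 6.51 in TAC-HDAC4-NT hearts, with the TAC-luciferase group above the other two. Neither the difference of 0.14 from sham nor that of -0.18 between TAC groups passed (adjusted p = 0.0733 and 0.152). Kcng2 lay between 9.50 and 9.98 on all arrays, and its TAC groups overlapped (difference -0.24; adjusted p = 0.276).

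Of the calcium-gated small-conductance channels, Kcnn2, known in atrial muscle, was at 6.29, 6.02 and 6.19 in sham, 5.57, 5.74 and 5.84 in TAC-luciferase and 5.83, 5.83 and 5.85 in TAC-HDAC4-NT hearts. All TAC hearts were below all sham hearts, by -0.45 ± 0.08 (adjusted p = 0.00421) and -0.33 ± 0.08 (adjusted p = 0.0191); the second call was lost without sham heart 1 or 3 or any 1 TAC-HDAC4-NT heart (up to 0.0651). Kcnn3, another member of this group, was at 5.80, 5.89 and 5.90 in sham, 6.03, 6.08 and 6.02 in TAC-luciferase and 6.02, 6.02 and 5.99 in TAC-HDAC4-NT hearts. It moved the other way, with every TAC heart above every sham heart, by 0.18 ± 0.05 (adjusted p = 0.0187; up to 0.0699 without sham heart 1 or TAC-luciferase heart 2) and 0.15 ± 0.05 (adjusted p = 0.0479; lost without any single heart, up to 0.14). Kcnn1 differed by -0.19 in both comparisons (adjusted p = 0.0335 and 0.0377). Its first call was lost without sham heart 1 or 3 or any 1 TAC-luciferase heart (up to 0.0923), and its second without any single heart other than sham heart 2 or TAC-luciferase heart 1 (up to 0.146).

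The sodium-gated channel gene Kcnt2 was at 6.04, 5.63 and 5.81 in sham, 6.07, 5.97 and 6.12 in TAC-luciferase and 6.23, 6.07 and 6.21 in TAC-HDAC4-NT hearts. The sham hearts overlapped with the TAC-luciferase group (0.23; adjusted p = 0.122) and lay below the TAC-HDAC4-NT group (0.35 ± 0.10; adjusted p = 0.0298, and up to 0.103 without sham heart 2 or 3 or TAC-HDAC4-NT heart 1 or 3). Kcnma1, the large-conductance calcium-gated pore of smooth muscle, was not tested, at 5.55 to 5.68. Its subunit Kcnmb1 was at 5.99, 5.87 and 5.93 in sham, 5.87, 6.12 and 6.17 in TAC-luciferase and 6.08, 6.02 and 6.08 in TAC-HDAC4-NT hearts. The TAC-HDAC4-NT hearts lay above the sham hearts and the TAC-luciferase hearts overlapped with them, and the differences of 0.13 and 0.13 did not pass (adjusted p = 0.286 and 0.271). Without TAC-luciferase heart 1 the first was 0.22 (adjusted p = 0.0235). The mean of the smooth muscle and pericyte markers, given with Kcnj8, was highest in TAC-HDAC4-NT hearts, but the markers did not move together. Against sham, 3 of the 7 tested were higher there (Pdgfrb, Cspg4 and Notch3). The smooth muscle gene Myh11 was lower (-0.24; adjusted p = 0.0443 by limma), and Acta2 differed by 0.002.

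Two-pore channels carry background potassium current. Kcnk3, the acid-sensitive member known in heart muscle, was at 9.54, 9.66 and 9.75 in sham, 9.51, 9.19 and 9.16 in TAC-luciferase and 9.37, 9.21 and 9.31 in TAC-HDAC4-NT hearts. All TAC hearts were below all sham hearts, although TAC-luciferase heart 1 was just under sham heart 1, and the differences were -0.36 ± 0.10 (adjusted p = 0.0245) and -0.35 ± 0.10 (adjusted p = 0.0295). Both calls were lost without sham heart 2 or 3, the first also without TAC-luciferase heart 2 or 3 (up to 0.0821) and the second without any 1 TAC-HDAC4-NT heart (up to 0.0999). Without TAC-luciferase hearts 2 and 3 the first difference was -0.14 (adjusted p = 0.428). Kcnk6 was at 6.14, 6.46 and 6.43 in sham, 6.40, 6.71 and 6.81 in TAC-luciferase and 6.30, 6.66 and 6.27 in TAC-HDAC4-NT hearts, with overlapping groups (0.30; adjusted p = 0.156). Without TAC-luciferase heart 1 its difference from sham was 0.42 (adjusted p = 0.0473). The stretch-gated channel gene Kcnk2 lay at 5.39 to 5.53, below the filter; with no filter it was higher in TAC-HDAC4-NT than in sham hearts by 0.10 (adjusted p = 0.0276).

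The 46 genes left untested lay between 5.21 and 5.78 on every array. They were 12 voltage-gated pores (Kcna4, Kcna6, Kcna7, Kcna10, Kcnc1, Kcnc2, Kcnd1, Kcnh5, Kcnh6, Kcnh7, Kcnh8 and Kcnq5), 8 inward rectifiers (Kcnj1, Kcnj4, Kcnj6, Kcnj10, Kcnj13, Kcnj14, Kcnj15 and Kcnj16), 7 two-pore channels (Kcnk2, Kcnk5, Kcnk7, Kcnk9, Kcnk10, Kcnk16 and Kcnk18), 4 silent subunits (Kcnf1, Kcng4, Kcns2 and Kcnv1), 4 members of the calcium- or sodium-gated families (Kcnma1, Kcnn4, Kcnt1 and Kcnu1) and 11 auxiliary genes (Kcnab1, Kcnab3, Kcne1l, Kcne3, Kcne4, Kcnip1, Kcnip4, Kcnmb2, Kcnmb3, Kcnmb4 and Kcnrg). Just outside the filter, on 2 of the 9 arrays, were Kcne4, Kcnh6 and Kcnma1, and just inside it, on 3, were Kcnh3, Kcns1 and Kcnv2. With no filter, 16 of the 91 were lower and 3 higher in TAC-luciferase hearts, adding Kcna7 (-0.15; adjusted p = 0.0354) and Kcne4 (0.20; adjusted p = 0.0429), where 8.95% and 6.49% of all genes were lower and higher. In TAC-HDAC4-NT hearts 13 of the 91 were then lower and 2 higher, where 7.41% and 6.21% of all genes were. The calls of Kcnh2, Kcnk3 and Kcnt2 were lost there (adjusted p = 0.0528, 0.0576 and 0.0576) and that of Kcnk2 was gained.

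Genes that work with these channels were taken from a list of 34 partners, of which 32 were named in the table and 27 tested. In TAC-luciferase against sham hearts 6 rose and 8 fell, with a median of -0.14 over the 27. Abcc9, the sulfonylurea receptor that pairs with Kcnj11 and Kcnj8, fell by 0.68, and Abcc8, the other receptor gene, fell by 0.27 (adjusted p = 0.000914 and 0.00598). Chrm2, the muscarinic receptor upstream of the Kcnj3 and Kcnj5 channel, fell by 0.44, and Rgs2, a brake on G-protein signals, fell by 0.81 (adjusted p = 0.00412 and 0.0142). The anchoring protein Ank2 fell by 0.49, the transcription factor Hey2 by 0.55 and the scaffold Dlg1 by 0.23. The ubiquitin ligase Nedd4l fell by 0.24. The G-protein subunits Gnao1, Gnai2 and Gnb1 rose by 0.96, 0.25 and 0.17, the actin crosslinker Flna by 0.43, the kinase Sgk1 by 0.61 and the scaffold Dlg4 by 0.21. Some of these calls rested on single hearts. That of Dlg1 was lost without sham heart 3 (adjusted p = 0.052), that of Dlg4 without any 1 sham heart or TAC-luciferase heart 3 (up to 0.0827) and that of Gnai2 without any 1 sham heart or TAC-luciferase heart 1 or 2 (up to 0.0805). Gnb1 kept its call only without TAC-HDAC4-NT heart 1 or 2 (otherwise up to 0.132), Nedd4l only without TAC-luciferase heart 2 or TAC-HDAC4-NT heart 1 (up to 0.14), and Sgk1 only without TAC-luciferase heart 1 (up to 0.145). The Sgk1 difference was 0.35 without TAC-luciferase heart 3 and 0.19 without hearts 2 and 3 of that group, and that of Rgs2 was -1.34 without those hearts.

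In TAC-HDAC4-NT against sham hearts 4 of the 27 partners rose (Gnao1 1.09, Flna 0.51, Gnai2 0.38 and Gnb1 0.24) and 6 fell, with a median of -0.05. The differences of those 6 were -1.10 for Rgs2, -0.60 for Abcc9, -0.50 for Lrrc52, -0.41 for Hey2, -0.38 for Ank2 and -0.32 for Abcc8. Lrrc52 lost its call without sham heart 1 or 3 or any 1 TAC-HDAC4-NT heart (adjusted p up to 0.0674), Hey2 without sham heart 1 or 3 or TAC-HDAC4-NT heart 1 or 2 (up to 0.1), and Gnb1 without TAC-HDAC4-NT heart 1 (0.0521). Between the TAC groups 0 of the 27 passed by limma, and 4 had an unadjusted p under 0.05, as did 1807 of all 12597 tested genes. The smallest adjusted p values were those of Chrm2, 0.40 higher with HDAC4-NT (adjusted p = 0.0653; 0.035 without TAC-luciferase heart 1), and of Irx4, 0.52 higher (adjusted p = 0.0925). With single hearts left out the adjusted p reached 0.248 for Chrm2 and 0.242 for Irx4. Over all settings the adjusted p reached 0.437 for Chrm2 and 0.844 for Irx4, and the lowest differences were 0.319 and 0.325.

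Markers of other cell types gave the setting of these values. Endothelial markers had a mean of 8.97 to 9.01 in sham, 8.80 to 8.96 in TAC-luciferase and 9.08 to 9.15 in TAC-HDAC4-NT hearts. Conduction system markers had a mean of 6.43 to 6.49, 6.26 to 6.39 and 6.29 to 6.31 in that order, and 2 of the 4 tested, Hcn4 and Tbx3, fell in TAC-luciferase hearts and Hcn4 in TAC-HDAC4-NT hearts. The 6 endothelial markers did not move together. In TAC-luciferase against sham hearts Cdh5 rose by 0.23, while Kdr fell by 0.68 and Tie1 by 0.22 (adjusted p = 0.0295, 0.0144 and 0.0129 by limma). In TAC-HDAC4-NT hearts 1 of the 6 rose, Cdh5 by 0.31, and 0 fell. Lymphocyte markers had a mean of 5.39 to 5.61 and nerve markers of 5.58 to 5.66 over all hearts, near the bottom of the scale. Fibroblast markers rose in 4 of 6 cases in both TAC groups and macrophage markers in 4 of 7 and 5 of 7. By limma 1 of 7 cardiomyocyte markers, Myh6, fell in TAC-luciferase and 0 in TAC-HDAC4-NT hearts. In TAC-HDAC4-NT against sham hearts 2 of these 7 had an unadjusted p under 0.05, as did 4256 of all 12597 tested genes. The part of cell composition in the potassium channel values was not tested.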

How the data were processed

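RNA was extracted from whole hearts and hybridised as biotinylated cRNA to arrays of Affymetrix, as the labels' protocols state. The deposited values are log2 levels that the authors computed using RMA, per the submitters' processing notes. The RMA version and the probe set definitions were not stated in the sources used. RMA compresses low values. The table holds 21225 probe sets, of which 20239 have 1 gene symbol in the platform annotation and 986 are unnamed here. All 20239 matched RefSeq (GRCm38.p6) by gene ID.

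Genes above the 40th percentile of all values (log2 5.659) on at least 3 of 9 arrays were kept, 12597 in all. A linear model over the 9 arrays, with 6 residual and 3.23 prior degrees of freedom, was fitted with limma 3.58.1 in R 4.3.3, and p-values were adjusted by Benjamini-Hochberg over all 12597 genes. Replicates are hearts of separate animals, and their number limits the precision. The members and lists were chosen with earlier results of these data known. Members past the threshold in any comparison are named, with a fixed set of cardiac channel genes whatever their values. The clock index is the mean of Arntl, Clock and Npas2 minus that of Cry2, Dbp, Nr1d1, Nr1d2, Per3 and Tef. The alternatives were no filter or a stricter one, a trended and robust prior, cyclic loess, array weights, only the arrays compared, a replicate block, a random block on the sample code's first number, the atrial or clock covariate, thresholds of 0.01 and 0.10, and each array left out; TAC-luciferase hearts 2 and 3 were left out together after seeing the data. Same-numbered hearts did not deviate together, so the numbers were not taken as pairs. The scripts were tested on simulated data. Plots used matplotlib 3.10.9 (Python 3.11.15).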

Additional observations from a re-analysis of the deposited data

How the results depend on the processing

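No called potassium channel gene changed direction under any setting run. Of the 17 calls in each comparison with sham, 9 and 9 stayed past the threshold in every setting in which the gene was fitted, with adjusted p up to 0.0201 and 0.0322; these were Kcnd2, Kcnd3, Kcnip2, Kcnj2, Kcnj3, Kcnj5 and Kcnj11 in both, with Kcnn2 in TAC-luciferase and Kcna2 in TAC-HDAC4-NT hearts, and Kcnv2 in both, whose entry past the filter through its sham hearts makes its stability no support. The 15 lower members in TAC-luciferase hearts became 9 without TAC-luciferase hearts 2 and 3, a setting chosen after seeing the data, and ranged from 11 to 15 when single hearts were left out. The 15 in TAC-HDAC4-NT hearts became 9 at an adjusted p under 0.01, where 6.45% of all tested genes were lower. Their count ranged from 10 to 15 with single hearts left out. In the fits with single hearts left out, 10.9% to 13.8% of all tested genes were lower in TAC-luciferase and 8.12% to 13% in TAC-HDAC4-NT hearts. The shares higher in those fits were 8.41% to 12.1% and 7.13% to 12.1%. The 2 higher members in TAC-luciferase hearts became 0 with the stricter filter, with only the 6 arrays compared and at 0.01, became 1 with the replicate block, the atrial covariate and hearts 2 and 3 left out, and ranged from 0 to 5 with single hearts left out. The 2 higher in TAC-HDAC4-NT hearts became 0 with the stricter filter, the clock covariate and at 0.01, became 1 with only the 6 arrays compared, the replicate block, the atrial covariate and TAC-luciferase hearts 2 and 3 left out, and ranged from 0 to 1 with single hearts left out. Between the TAC groups the count of lower members, 0, became 1 with the trended and robust prior (Kcnh1) and at 0.10. There 0.246% and 0.945% of all tested genes were lower. With array weights the count of lower members became 2 (Kcnh1 and Kcna5) and that of higher members, 0, became 1 (Kcnj11). In that fit 3.06% of all tested genes were lower and 3.51% higher. With single hearts left out the count of lower members ranged from 0 to 2, and the share of all tested genes lower from 0.00794% to 3.15%. The causes of these moves were not tested.

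Same-numbered hearts of different groups had deviations correlated at -0.123 to 0.199, with 2 of 9 pairs above 0.1, so the numbers are not known to pair hearts; with the replicate block 15 members were lower in TAC-luciferase and 14 in TAC-HDAC4-NT hearts. Cyclic loess moved the split over all tested genes from 1405 higher and 1878 lower to 1625 and 1521 in TAC-luciferase, and from 1326 and 1546 to 1457 and 1347 in TAC-HDAC4-NT hearts, while the count of lower members was 15 in both. Signal near the bottom of the array scale limits what could be seen in the 46 untested genes, and with 3 hearts a group a difference that missed the threshold is not shown to be 0.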
